A study of Mus musculus with 4 samples.

Results

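The cells described here are smooth muscle cells of the CNC AngII library in which no Igfbp2 transcript was counted. They were selected on their UMI counts (unique molecular identifiers, each standing for 1 captured transcript). A barcode qualified with at least 500 detected genes, at most 10% mitochondrial UMIs, at least 5 UMIs of Myh11, 0 of Pdgfra, Ptprc and Pecam1, 0 of Igfbp2 and fewer than 5 of Spp1. Of 11098 barcodes in the library, 10471 passed the first 2 limits and 6207 passed the smooth muscle gate. The rule took 1060 of these, 17.1% of the gated cells (95% Clopper-Pearson interval 16.1 to 18.0%). The same gate held 4525 cells with at least 2 UMIs of Igfbp2, called Igfbp2-positive below, 536 cells with 1 UMI, and 86 cells with 0 UMIs of Igfbp2 but at least 5 of Spp1. No limit on Spp1 was set for the Igfbp2-positive cells, of which 4168 had fewer than 5 UMIs of it.

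The study asked how cells of different embryonic origin in the ascending aorta respond to angiotensin II (AngII), a hormone that constricts arteries and raises blood pressure. CNC AngII came from the aorta of male Mef2c-mTmG mice infused with AngII for 3 days. SHF AngII came from male mice of that strain after the same infusion, and SHF baseline from male mice of that strain at baseline, without AngII. Live single cells were sorted by lineage before capture. SHF stands for the second heart field, whereas the labels do not spell out CNC. In an mTmG mouse a membrane fluorescent protein changes colour in cells that have had Cre recombinase. The labels do not give the Cre allele, the colour sorted, the age of the mice or how many mice were pooled. No baseline sample of CNC cells was used here, so their state without AngII has no value below. With a single library for every group there was nothing to test between animals: differences are described by size, and intervals cover counting error only.

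Smooth muscle cells make up the medial layers of the aorta. They contract through actin and myosin, and they also lay down the elastic fibres and collagen that let the wall recoil. IGF-binding proteins bind insulin-like growth factors outside the cell and set how much of them reaches their receptor; Igfbp2 is 1 of them, and Spp1 encodes osteopontin, a secreted protein often used to mark smooth muscle cells that have left the contractile state. Under AngII, aortic smooth muscle is known to make more matrix and more growth factor signals.

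The members had a median depth of 10210.5 UMIs (range 2594 to 52462) and a median of 2778 genes, against 14226 UMIs and 3315 genes in Igfbp2-positive cells. Mitochondrial UMIs were at a median of 5.39% and 5.09%, and Scrublet called 0.943% and 1.52% of these cells doublets. A shallow cell can hold 0 UMIs of a gene that it transcribes, so the split is partly a split by depth. Levels of Igfbp2-positive cells were therefore standardised to the members' depth over fixed bins of total UMIs. The 7 bins with at least 20 cells of both kinds held 1033 members and 4316 Igfbp2-positive cells. Between pairs of libraries, 25 to 29 cell barcodes were shared.

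The members carried the smooth muscle markers, with desmin as the exception. Cnn1, which encodes calponin, was seen in 99.8% of members at 1832 UMIs per 1000000 UMIs of these cells (written CPM; interval 1808 to 1856), and at 1801 CPM in Igfbp2-positive cells. Acta2, smooth muscle actin, stood at 34602 CPM against 34195, and Tagln, transgelin, at 19367 against 19368, both without depth standardisation. Des, the intermediate filament desmin, had a UMI in only 15.1% of members (13.0 to 17.4%) and stood at 86.8 CPM. In the CNC AngII library that low level was common to both kinds of cell, since Igfbp2-positive cells had Des at 92.3 CPM in 18.8% of cells. Igfbp2-negative cells of SHF AngII, taken with the same gate, had Des at 642 CPM in 52.1% of cells. Of the genes that the rule used, Igfbp2 stood at 0 in the members by choice and at 1882 CPM in Igfbp2-positive cells, and Myh11 at 1901 and 1776 CPM. Spp1, limited in the members only, had a UMI in 11.6% of members and 20.9% of Igfbp2-positive cells. The name smooth muscle thus rests on Myh11, which the rule used, and on Cnn1, Acta2, Tagln and 4 more contractile markers at 10 CPM or more, and not on Des.

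Endothelial, lymphocyte, mesothelial and erythrocyte markers were close to absent. The 7 endothelial markers outside the gate summed to 0.654 CPM in the members, with Kdr, Emcn and Cldn5 at 0. The 6 lymphocyte markers also summed to 0.654 CPM, the 6 mesothelial markers to 0.327 CPM, and the 5 erythrocyte genes had 0 UMIs. The 6 Schwann cell markers summed to 11.4 CPM. Pericyte markers were present: 7 genes summed to 451 CPM in the members and 459 CPM in Igfbp2-positive cells. In the members 5 of these 7 had at least 10 CPM. Macrophage markers were present: 12 genes summed to 293 CPM in the members and 209 CPM in Igfbp2-positive cells. The library held 1592 macrophages among its kept barcodes, 15.2%, whereas SHF AngII held 9. Fibroblast markers summed to 1669.7 CPM in the members and 1872 CPM in Igfbp2-positive cells, a list that includes Col1a1 and Gsn, which smooth muscle cells also express. Cardiomyocyte markers summed to 95.6 CPM in the members and 50.1 CPM in Igfbp2-positive cells, with Myh6 and Mb at 0 in the members. For the members, 10 cells held 43.0% of the Tnnt2 UMIs.

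Cells just across the limits of the rule were as follows, as a description only. Eln, which encodes elastin, stood at 3747 CPM in the members, 4544 CPM in the 472 cells with 1 UMI of Igfbp2 and fewer than 5 of Spp1, and 4147 CPM in the 275 cells with 2. Apoe ran the other way between the first steps, at 176, 118 and 187 CPM, so a single step of Igfbp2 did not order it. The 22 members with 3 or 4 UMIs of Spp1 had Acta2 at 28849 CPM and Timp1 at 309 CPM, and the 11 cells just outside, with 5 or 6, had 29636 and 399.5 CPM. The 48 members with 5 or 6 UMIs of Myh11 had Acta2 at 23742 CPM and Apoe at 671 CPM. The 38 cells with 3 or 4, outside the gate, had 21765 and 448 CPM, with C1qa at 255 CPM against 91.1.

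Reading Igfbp2 at 1 depth shows how the members fit among the other cells. With every gated cell thinned to 5000 UMIs, 27.0% of CNC AngII smooth muscle cells (25.9 to 28.1%) had 0 UMIs of Igfbp2 and 10.5% had 20 or more. In SHF AngII 41.0% had 0 and 9.63% had 20 or more, and in SHF baseline 83.7% had 0 and 0.978% had 20 or more. Between these ends 18.3% of CNC AngII cells had 2 to 4 UMIs, 17.0% had 5 to 9 and 16.2% had 10 to 19, so the zero class was 1 of several well filled classes. Macrophages of CNC AngII, which should lack the gene, had at least 1 UMI of Igfbp2 in 19.7% of cells as deposited and 12.0% after thinning, at a median depth of 12329.5 UMIs. As deposited, 9.05% of them reached the 2 UMIs that define an Igfbp2-positive cell here, against 72.9% of gated smooth muscle cells.

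**Figure D1:**
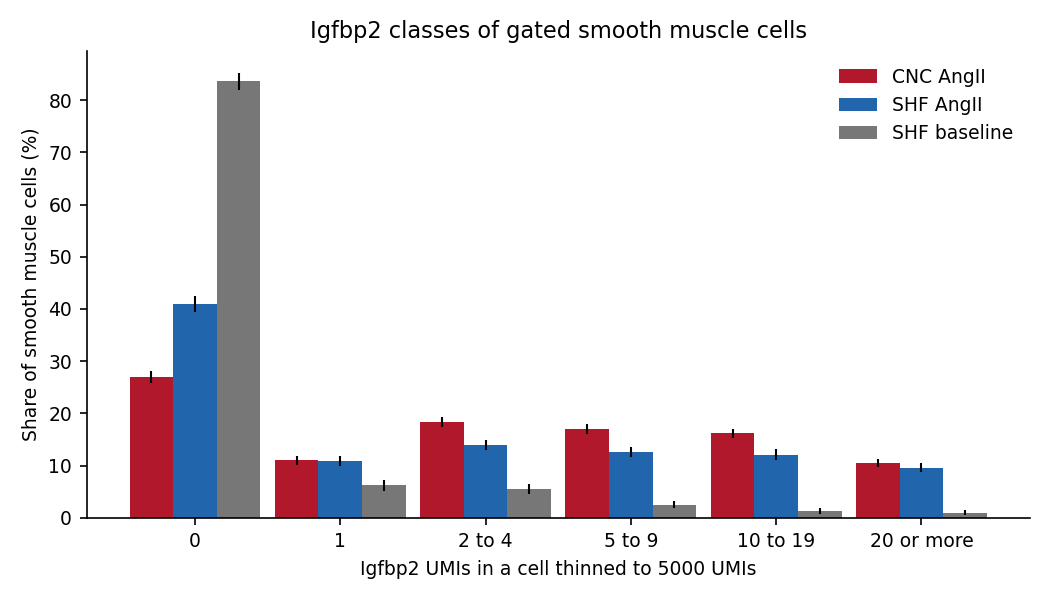
Share of gated smooth muscle cells in each Igfbp2 class (percent, y axis) after thinning to 5000 UMIs (x axis: Igfbp2 UMIs), for 3 libraries; bars start at 0 and error bars are 95% Clopper-Pearson intervals. CNC AngII has the lowest share at 0 UMIs, 27.0%, and SHF baseline the highest, 83.7%.

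Across the transcriptome the members differed little from Igfbp2-positive cells of their library. A gene counts as past the fold when its log2 ratio, log2((CPM + 1)/(CPM + 1)), is at least 0.5 in size, a 1.41-fold difference, among genes with a mean of at least 10 CPM. Of 6827 such genes, 47 were past the fold on the higher side in the members, 0.688%, and 15 on the lower side, 0.220%. The median size of a log2 ratio was 0.07. Igfbp2 sorted the cells, so these counts describe the split and support nothing by themselves. The Spp1 limit was set for the members only, so the split is not by Igfbp2 alone. The alternative settings included that limit in the Igfbp2-positive cells too. Over all of them the log2 ratio ran from -0.80 to -0.37 for Eln and from -0.81 to -0.30 for Tnc, which encodes tenascin C. Fewer cells of a kind and less RNA per cell cannot be told apart in such sums.

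Among the named genes lower in the members, Ccn5, Ankrd1, Igfbp4 and Ptprz1 were past the fold, and the other 11 were under it. Ccn5, a matricellular protein of the CCN family, had 60.8 CPM (56.4 to 65.5) in the members and 118 CPM (115 to 122) in Igfbp2-positive cells, a log2 ratio of -0.95. A UMI of Ccn5 was seen in 32.0% of members and 57.8% of Igfbp2-positive cells. The matrix genes named below Ccn5 were all under the fold. Eln, the main protein of elastic fibres, had 3687 CPM against 4975 CPM, a log2 ratio of -0.43. Nearly every cell of both kinds had Eln, so this was a lower level and not a loss: 98.7% of members carried it. Fn1, fibronectin, had 751 CPM against 981 CPM, and Tnc, tenascin C, had a log2 ratio of -0.43 with a UMI in 40.2% and 65.2% of cells. Fbln5, which links elastin to cells, had 410.3 CPM against 522 CPM, and Tinagl1, a basement membrane glycoprotein, had 435 CPM against 567 CPM. All 15 of the lowest named genes were on the lower side in 7 of 7 depth bins.

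Growth factor genes were mixed. Tgfb2 had 135 CPM in the members and 170.5 CPM in Igfbp2-positive cells, and Tgfb3 had 56.4 CPM against 73.4 CPM; both are ligands of the TGF-beta pathway, which drives matrix production. Their log2 ratios were -0.34 and -0.37, under the fold used here. Tgfb1 lay on the other side, at 50.6 CPM against 43.1 CPM. Igfbp4, another IGF-binding protein, had 113 CPM against 183 CPM, a log2 ratio of -0.70. Of the other IGF genes measured, Igf1r, which encodes the receptor, had a log2 ratio of -0.02 and Igfbp7 one of -0.14. Ptprz1, a receptor phosphatase that binds pleiotrophin, had 98.1 CPM against 148 CPM, and Wnt16, a Wnt ligand, had 54.1 CPM against 75.7 CPM, a log2 ratio of -0.48 that was under the fold.

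Ankrd1 had the next lowest ratio after Ccn5 among the named genes. It encodes an ankyrin repeat protein of striated muscle and is a widely used target gene of YAP and TEAD, which respond to mechanical load. It had 44.3 CPM (40.6 to 48.3) in the members and 77.0 CPM (74.0 to 80.2) in Igfbp2-positive cells, a log2 ratio of -0.78, with a UMI in 24.7% and 41.5% of cells. Ccn1 and Ccn2, known as targets of the same factors, had log2 ratios of 0.10 and -0.18, so these genes did not share the low ratio of Ankrd1. The bases before the annotated start of Ankrd1 are shown because its ratio was below -0.5 in all 3 splits described here. They are 250 bases from RefSeq on the minus strand of chr19:36119845-36120094, build GRCm38.p6, with the TEAD motif GGAATG, searched on both strands, in capitals.
Ankrd1: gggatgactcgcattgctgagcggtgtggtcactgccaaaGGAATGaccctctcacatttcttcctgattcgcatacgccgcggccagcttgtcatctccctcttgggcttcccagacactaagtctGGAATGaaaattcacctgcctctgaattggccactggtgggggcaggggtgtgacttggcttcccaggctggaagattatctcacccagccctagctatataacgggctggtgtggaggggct
The motif occurs 2 times, both on the gene's strand. It was found at least once in 12.6% of 32851 promoter windows of that length and at least 2 times in 1.02%. A match of letters is a description and shows no binding.

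Mt1 was past the fold on the side higher in the members, and Mt2 was under it. Mt1 encodes a metal-binding protein that corticosteroids and zinc induce. It had 703 CPM (688 to 719) in the members and 473 CPM (465 to 482) in Igfbp2-positive cells, a log2 ratio of 0.57. Its neighbour Mt2 had 114 CPM against 84.2 CPM, a log2 ratio of 0.44. Both were on the higher side in 7 of 7 depth bins. A UMI of Mt1 was seen in 69.7% of thinned members and 64.9% of thinned Igfbp2-positive cells, and in 84.2% and 85.9% as deposited. The 10 members with the most Mt1 held 14.9% of the members' Mt1 UMIs.

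The sequences before both metallothionein starts are shown because these neighbouring genes lay on the same side of 0 in all 3 splits and in the comparison of libraries below. They are 250 bases each from RefSeq, plus strand of build GRCm38.p6: chr8:94178839-94179088 for Mt1 and chr8:94172368-94172617 for Mt2. Capitals mark the core of the metal response element, TGCACNC or TGCGCNC, searched on both strands.
Mt1: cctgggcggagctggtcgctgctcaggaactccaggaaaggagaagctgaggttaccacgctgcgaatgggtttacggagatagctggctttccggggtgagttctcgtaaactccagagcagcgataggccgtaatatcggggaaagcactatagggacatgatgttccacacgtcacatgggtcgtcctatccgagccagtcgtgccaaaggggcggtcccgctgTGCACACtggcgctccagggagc
Mt2: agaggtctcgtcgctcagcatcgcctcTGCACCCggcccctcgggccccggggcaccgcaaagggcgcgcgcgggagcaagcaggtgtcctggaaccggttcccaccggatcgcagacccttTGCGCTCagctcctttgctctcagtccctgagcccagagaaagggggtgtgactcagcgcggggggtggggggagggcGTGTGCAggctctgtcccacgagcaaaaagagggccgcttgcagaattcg
The core occurs 1 time before Mt1 and 3 times before Mt2, of which 1 is on the opposite strand. It was found in 21.4% of the 32851 windows and at least 3 times in 1.26%. The window ends at the annotated start, so elements past that start are not counted. The counts are those of this window only, and not of all elements of either gene.

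Other named genes past the fold on that side had varied roles. Itih4, an inter-alpha-trypsin inhibitor heavy chain, had 70.5 CPM in the members and 40.8 CPM in Igfbp2-positive cells, a log2 ratio of 0.77. Apoe, a carrier of lipids, had 180.3 CPM against 98.0 CPM, a log2 ratio of 0.87. Over the alternatives that ratio ran from 0.58, with at least 20 UMIs of Myh11, to 2.17, after 5% of the library profile was subtracted. Tcap, telethonin, a titin cap protein of striated muscle, had 136 CPM against 78.9 CPM. Gstm1, a glutathione transferase, had 183 CPM against 127 CPM, and Socs3, a feedback inhibitor of cytokine signalling, had 135 CPM against 93.3 CPM. Tcap, Itih4, Gstm1, Socs3 and Sncg were on the higher side in 7 of 7 depth bins, and Apoe in 6 of 7.

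**Figure D2:**
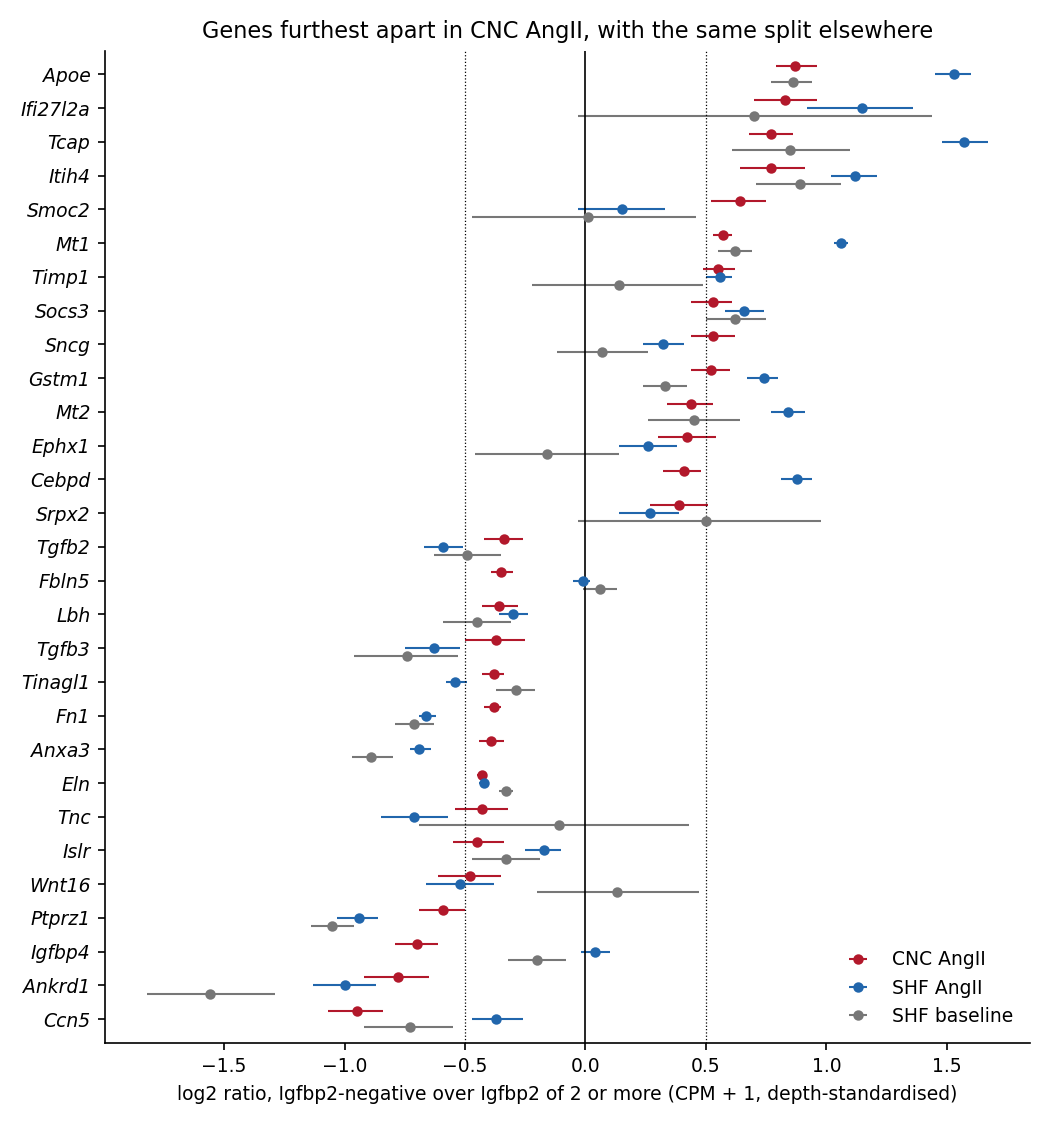
Depth-standardised log2 ratio of Igfbp2-negative over Igfbp2-positive smooth muscle cells (x axis; CPM + 1) for the highest and lowest named genes of CNC AngII (y axis), in 3 libraries; bars are 95% counting intervals and dotted lines mark 0.5 and -0.5. Ccn5 is lowest in CNC AngII at -0.95 and Apoe highest at 0.87, while Igfbp4 and Fbln5 are near 0 in SHF AngII.

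A few cells set some of these sums. In the members, 112 cells had a UMI of C1qa, a complement gene of macrophages, and 10 of them held 86.0% of its 751 UMIs. In Igfbp2-positive cells the top 10 held 42.1%. Since 10 cells are a larger part of 1060 members than of 4525 Igfbp2-positive cells, such shares are not alike between the kinds. For Gstm1, seen in most cells of both kinds, they were 7.33% and 1.75%. For Lyz2 these shares were 72.8% and 36.3%, and for Ifi27l2a, an interferon-stimulated gene, 70.5% and 38.8%. For Apoe they were 42.5% and 25.8%. A UMI of Apoe was seen in 51.8% of members and 47.4% of Igfbp2-positive cells as deposited, and in 34.0% and 23.0% after thinning. All 6 macrophage markers with at least 10 CPM were past the fold on the higher side, from 0.94 for Tyrobp to 1.43 for Lyve1. Of the 47 genes on that side, 29 stood higher in the library's macrophages than in both kinds of smooth muscle cell, among them Apoe, at 7262 CPM there, and Ifi27l2a, at 5115 CPM. Of the 15 genes on the lower side 2 did. The share over all genes tested was not counted, so these counts have no background and are a description only. After thinning, at least 1 UMI of the 13 macrophage markers was seen in 28.2% of members (25.5 to 31.1%) and 27.9% of Igfbp2-positive cells (26.6 to 29.3%), so these shares differed by less than their counting intervals. Fibroblast markers differed in the share: any of 7 was seen in 11.6% of members (9.73 to 13.8%) and 7.69% of Igfbp2-positive cells (6.93 to 8.51%). Dcn and Lum, small proteoglycans of fibroblasts, had log2 ratios of 1.04 and 1.11, and they were the 2 past the fold of 5 fibroblast markers measured, whose median was 0.46 and lowest value -0.20. The top 10 cells held 62.2% of the Dcn UMIs in the members and 40.5% in Igfbp2-positive cells.

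Recounting only cells with no UMI of any macrophage marker left 514 members and the ratios of the genes above at 1.12 for Apoe, 0.95 for Itih4, 0.86 for Tcap and 0.57 for Mt1. Recounting cells with no UMI of the 7 fibroblast markers gave 0.69, 0.68, 0.73 and 0.41. Among the genes on the lower side the values were -1.03 and -1.13 for Ccn5 and -0.39 and -0.41 for Eln. Ifi27l2a had 0.49 without the cells that held macrophage marker UMIs, -0.51 when at least 20 UMIs of Myh11 were required and 4.19 after 5% of the library profile was subtracted. Timp1, an inhibitor of matrix proteases, had a log2 ratio of 0.55 but lay on the higher side in only 3 of 7 bins, and it was -0.10 without depth standardisation. Espn, chosen after its values were seen, had the highest ratio of all genes tested, 4.71, and 693 of its 709 UMIs in the members lay in 1 cell.

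The fixed gene lists place these genes among their pathways. The 6827 genes tested had a median log2 ratio of 0.02, with 3869 above 0. The contractile list had a median of -0.03 over 22 genes with none past the fold, and its range ran from -0.11 to 0.30, the top being Smoc1. The 28 respiratory chain genes had a median of -0.02 and ran from -0.12 to 0.05. Elastic fibre genes had a median of -0.12, with 4 of 17 above 0, and collagens one of -0.10, with 2 of 14 above 0. Within these lists Mfap5, a microfibril glycoprotein, had -0.25, Loxl1, a lysyl oxidase that cross-links elastin, -0.22, and Col4a2, a basement membrane collagen, -0.25. No gene of either list was past the fold.

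Lists of stress genes lay on the other side. Immediate early and heat shock genes had a median of 0.20, with 22 of 25 above 0 and none past the fold: Btg2, an antiproliferative gene, stood at 668 CPM against 516 CPM, Junb, an AP-1 factor, at 896 CPM against 709 CPM, and Atf3 at 737 CPM against 591 CPM. Glucocorticoid and metallothionein genes also had a median of 0.20, with 12 of 12 above 0 and only Mt1 past the fold. Tsc22d3 and Fkbp5, known corticosteroid targets, had 12.2 CPM against 9.20 CPM and 12.5 CPM against 9.99 CPM. Inflammatory genes had the highest median, 0.47, with 6 of 12 past the fold: Ccl2, Ccl7, Ccl8, Cxcl2, Socs3 and Vcam1. That median was 0.14 in cells without macrophage marker UMIs, 0.06 in cells without fibroblast marker UMIs and -0.09 in cells thinned to 5000 UMIs, and the part of those cell types in it was not tested. Chaperones of the unfolded protein response had a median of 0.03 over 17 genes, and the 3 cell cycle genes measured a median of -0.15. A UMI of Mki67 or Top2a, genes of dividing cells, was seen in 1.87% of thinned members (1.13 to 2.91%) and 3.02% of thinned Igfbp2-positive cells (2.54 to 3.57%).

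The remaining lists had medians between -0.16 and 0.12. Matricellular and proteoglycan genes had a median of 0.04 with Dcn, Lum and Timp1 past the fold on the higher side and Ccn5 on the lower, so a single median hides members that lay far apart. Mgp had 8006 CPM against 6738 CPM, a log2 ratio of 0.25, while Ccn3, of the same family as Ccn5, had 815 CPM against 1009 CPM. TGF-beta and BMP genes had a median of 0.01 over 23 genes with none past the fold. The IGF axis had -0.02 over 7 genes, of which Igfbp4 alone was past it, and striated muscle genes -0.16 over 6, of which Ankrd1 alone was. Medians were 0.10 for calcium and potassium channel genes, 0.04 for contraction regulators, 0.03 for angiotensin and RGS genes, 0.12 for Notch genes and 0.04 for outflow tract transcription factors, all with none past the fold. The lipid list had 0.10 over 12 genes with only Apoe past it, and the 3 chondrogenic genes measured had 0.07, with Sox9, the cartilage transcription factor, at 30.5 CPM against 20.8 CPM.

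**Figure D3:**
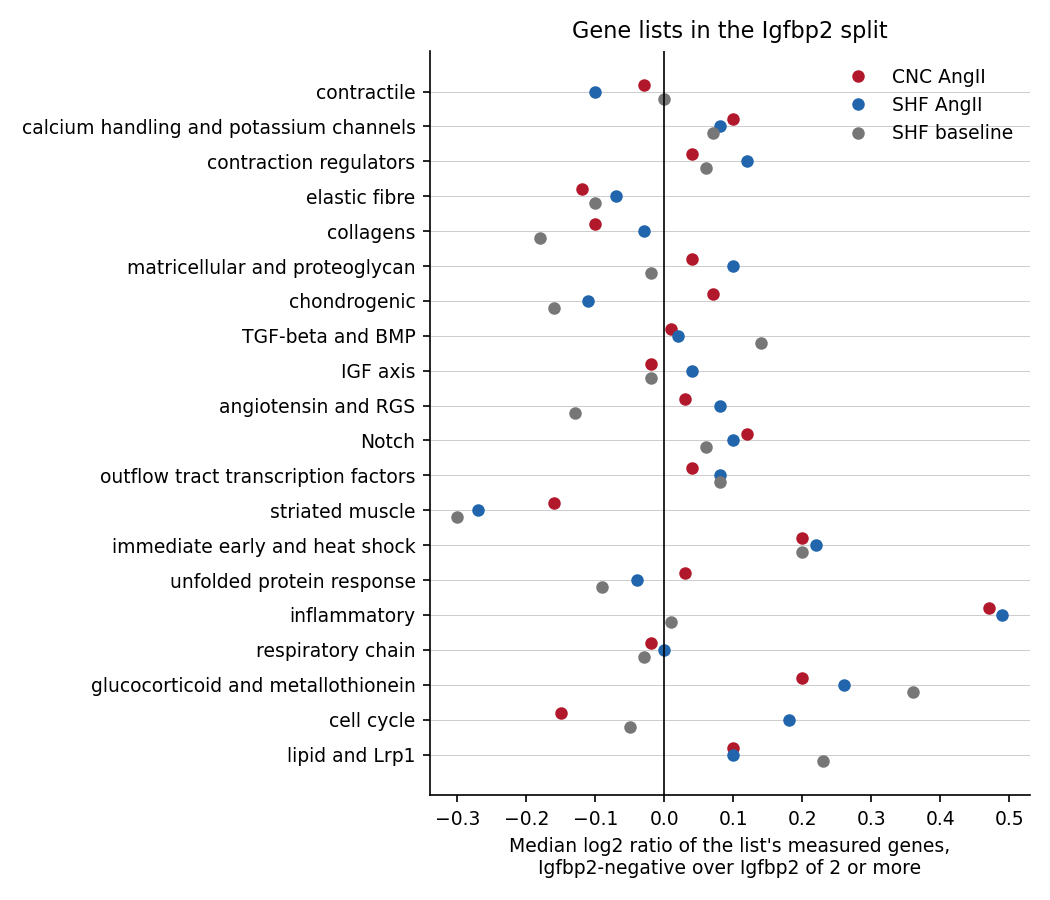
Median log2 ratio of Igfbp2-negative over Igfbp2-positive cells (x axis) for 20 gene lists (y axis) in 3 libraries, over genes of each list with at least 10 CPM; points carry no error bar. Contractile and respiratory chain lists lie near 0 in CNC AngII, at -0.03 and -0.02, and the inflammatory list is highest at 0.47.

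Levels across the classes of Igfbp2 after thinning are described next. The named genes were chosen for their ratio between cells with 0 and with at least 2 UMIs of Igfbp2 in this library. A low or high zero class therefore follows from that choice and is no further result. The genes on the lower side stood higher toward high Igfbp2. Ccn5 had 67.3 CPM in cells with 0 UMIs of Igfbp2, 77.3 CPM at 1, 105 CPM at 2 to 4, 109.9 CPM at 5 to 9, 129 CPM at 10 to 19 and 185 CPM at 20 or more. Ankrd1 went from 51.8 CPM at 0 to 129 CPM at 20 or more, Ptprz1 from 95.5 to 199 CPM, and Igfbp4 from 113 to 254 CPM, while for Eln the ends were 4096 and 5957 CPM. The zero class was the lowest for Ccn5, Ankrd1, Ptprz1 and Eln, whereas Igfbp4 had 111 CPM at 1 UMI, and Ptprz1 had 116 CPM at 1 and 109 CPM at 2 to 4. The zero class of 1655 cells is wider than the members, since thinning removed the Igfbp2 UMIs of some cells.

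The higher genes had another shape. Itih4 had 68.9 CPM at 0 UMIs and between 33.3 and 37.6 CPM in the 5 other classes. Mt1 had 651 CPM at 0 and between 413 and 474 CPM elsewhere. Their difference lay mainly between 0 and 1 UMI. Tcap and Socs3 stood lower in each higher class, with ends of 128 and 49.1 CPM for Tcap and 137 and 65.8 CPM for Socs3. The zero class here also holds Spp1-high cells, since it was read after thinning without the Spp1 limit, and Spp1 stood at 342 CPM in it. Acta2 had 34735 CPM at 0 and 38295 CPM at 20 or more.

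**Figure D4:**
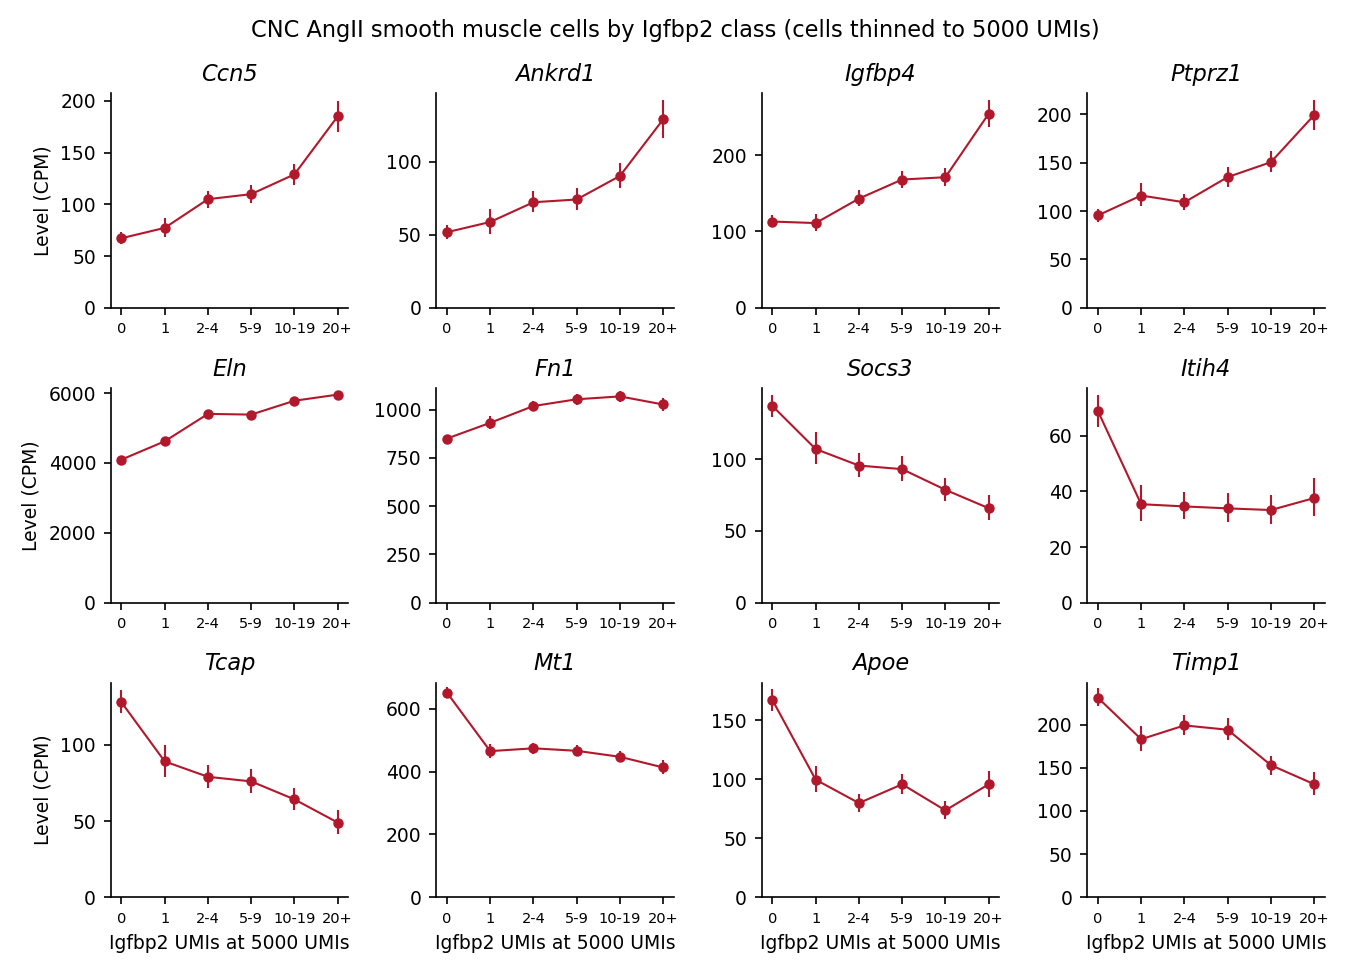
Level (CPM, y axes from 0) of 12 genes in CNC AngII smooth muscle cells grouped by Igfbp2 UMIs after thinning to 5000 UMIs (x axes, 6 classes); bars are 95% counting intervals. Ccn5, Ankrd1, Igfbp4 and Ptprz1 climb with Igfbp2, whereas Itih4 and Mt1 are high in the zero class and flat in the others. The genes were chosen on the Igfbp2 split of this library, so the place of the zero class follows from that choice.

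The split was then read in 2 libraries that the rule did not use. The Igfbp2-negative cells of SHF AngII were 1395 of 4523 gated cells, 30.8%, and those of SHF baseline 1591 of 2090, 76.1%. The split of SHF AngII had 151 of 6815 genes past the fold on the higher side, 2.22%, and 41 on the lower side, 0.602%. The split of SHF baseline had 185 of 7103, 2.60%, and 119, 1.68%, from only 333 Igfbp2-positive cells. Among the 47 genes on the higher side in CNC AngII, 30 had at least 10 CPM in SHF AngII. All 30 were above 0 there and 25 were past the fold, against 2.22% of all genes, with a median of 0.87 beside 0.02 for all genes. Of the 15 on the lower side, 13 were measured, 12 were below 0 and 9 past the fold. In SHF baseline, 21 of 23 and 11 of 12 measured genes kept their direction, 11 and 8 of them past the fold, and 1 gene, Vcam1, was past it in the opposite direction. Over all genes tested, 3820 of 6815 were above 0 in SHF AngII and 3761 of 7103 in SHF baseline.

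Several named genes had the same direction in the 3 splits. Mt1 had 1469 CPM in Igfbp2-negative and 702 CPM in Igfbp2-positive cells of SHF AngII, and 855 against 555 CPM in SHF baseline. Apoe had 350.4 against 121 CPM in SHF AngII and 879 against 485 CPM in SHF baseline. The macrophage markers summed to 4.51 and 4.88 CPM in the Igfbp2-negative cells of these libraries, with C1qa, C1qb and C1qc at 0. Eln had 2948 against 3947 CPM and 2361 against 2965 CPM, and Ankrd1 had 41.3 against 83.4 CPM and 22.3 against 67.5 CPM.

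Ccn5 had 65.4 against 84.5 CPM in SHF AngII, a log2 ratio of -0.37 with 5 of 8 depth bins in that direction, and 59.5 against 99.4 CPM in SHF baseline. In SHF AngII its ratio was 0.26 at 5% mitochondrial UMIs and -1.27 without fibroblast marker UMIs, so its direction there depended on the setting.

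Other genes did not have that pattern. Igfbp4 had 254 CPM against 247 CPM in SHF AngII, a log2 ratio of 0.04 (-0.02 to 0.10), beside -0.70 (-0.79 to -0.61) in CNC AngII. Over the alternatives the SHF AngII value ran from -0.40, without fibroblast marker UMIs, to 0.38, at 5% mitochondrial UMIs, and the CNC AngII value from -0.88 to -0.47. Fbln5 had 664 CPM against 670.1 CPM there, a log2 ratio of -0.01, beside -0.35 in CNC AngII. Smoc2, a matricellular protein, had 28.2 CPM against 25.3 CPM, a log2 ratio of 0.15 beside 0.64, although its value in CNC AngII was -0.02 in thinned cells. Acan, the proteoglycan aggrecan, had a ratio of -0.59 in SHF AngII, whereas in CNC AngII it was 0.04. Of 6647 genes measured in both AngII splits none was past the fold in opposite directions, and the difference between splits was not tested. Fibroblast markers were on the higher side in SHF AngII as well, with 7 of 9 past the fold and a median of 0.84, and in SHF baseline 3 of 8 were, with a median of 0.30. In cells without fibroblast marker UMIs Apoe had 0.94 in SHF AngII and 0.95 in SHF baseline, where Tcap was on the opposite side at -0.23. The SHF baseline values rest on 530 Igfbp2-negative and only 81 Igfbp2-positive cells, before the limit on cells per depth bin.

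The Igfbp2-negative cells of CNC AngII were last set beside those of SHF AngII, gated alike, over 7 depth bins with 1033 and 1352 cells. The members also enter the split above, so the comparisons share cells, and origin cannot be told apart from library. Of 6894 genes, 123 were past the fold on the side higher in CNC, 1.78%, and 198 on the side lower in CNC, 2.87%. The median size of a log2 ratio was 0.12. The contractile list had a median of 0.01, with 1 of 23 genes past the fold, and the respiratory chain list one of -0.07, with none.

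Matrix lists held more genes past the fold lower in CNC than higher, as did all genes tested, at 2.87% lower and 1.78% higher. Matricellular and proteoglycan genes had 3 higher and 8 lower of 28, elastic fibre genes 1 and 4 of 18, and collagens 1 and 2 of 14, while 2 of 3 chondrogenic genes were higher. Medians were -0.05, -0.07 and 0.08 for the matricellular, elastic fibre and collagen lists. In cells without fibroblast marker UMIs they were 0.12, 0.11 and 0.12, so the sign of the matricellular and elastic fibre medians depended on those cells. Among the higher genes, Acan had 209.6 CPM (201 to 218) in the members and 59.2 CPM (55.4 to 63.2) in SHF AngII, a log2 ratio of 1.81, with a UMI in 56.0% and 28.0% of cells. Mia, a cartilage-derived secreted protein, had 30.2 CPM against 4.63 CPM, and Tnc a log2 ratio of 1.26. Fn1 had 751 CPM against 469 CPM and Eln a log2 ratio of 0.39, under the fold. On the lower side of the same lists, Dcn had 55.8 CPM against 396 CPM, Fbln1, a fibulin, 6.53 CPM against 68.5 CPM and Fbln5 410.3 CPM against 676 CPM. Col15a1, a basement membrane collagen, had a log2 ratio of 0.64. S100a4, a calcium-binding protein, had 2344 CPM against 1183 CPM, Lgals3, galectin 3, had 221 CPM against 115 CPM, and Aqp1, a water channel, had 130.3 CPM against 58.2 CPM. Npr1, the receptor of atrial natriuretic peptide, which relaxes smooth muscle, had 66.5 CPM against 34.2 CPM, and Bdnf, a neurotrophin, 84.7 CPM against 46.6 CPM. Acan, Aqp1, S100a4 and Lgals3 kept their direction in 7 of 7 depth bins, and Npr1, Bdnf and Fn1 in 6 of 7.

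Among the genes that the naming rule took, Des had the lowest ratio. It had 91.1 CPM (85.7 to 96.7) in the members and 651 CPM (638 to 664) in SHF AngII, a log2 ratio of -2.82, and Tnnt2, cardiac troponin T, a ratio of -3.32. Mt1 had 703 CPM against 1537 CPM and Mt2 had 114 CPM against 253 CPM, so genes that were high in the members within their own library were lower than in the like cells of SHF AngII. Itih4 (70.5 against 196 CPM), Apoe (180.3 against 375 CPM) and Gstm1 (183 against 344 CPM) had the same order. Igfbp4 had 113 CPM against 263 CPM and Cxcl12, a chemokine, 63.1 CPM against 123 CPM. Col14a1, a collagen of the fibroblast matrix, had 25.3 CPM against 85.5 CPM.

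Markers of other cell types also differed between these groups. Of 9 fibroblast markers, 7 were past the fold on the lower side, with a median of -1.82, and the 4 macrophage markers measured were past it on the higher side, C1qa, C1qb and C1qc having 0 UMIs in the SHF AngII cells. In cells without fibroblast marker UMIs the ratios were -0.40 for Apoe, -1.06 for Mt1 and -3.50 for Des. In cells without macrophage marker UMIs they were -1.19, -1.30 and -2.70, and 1.84 for Acan. Of these genes, Apoe alone came under the fold, without the cells that carried fibroblast markers. Cardiomyocyte markers summed to 95.6 and 871 CPM, and their part in the gap of Des was not tested.

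**Figure D5:**
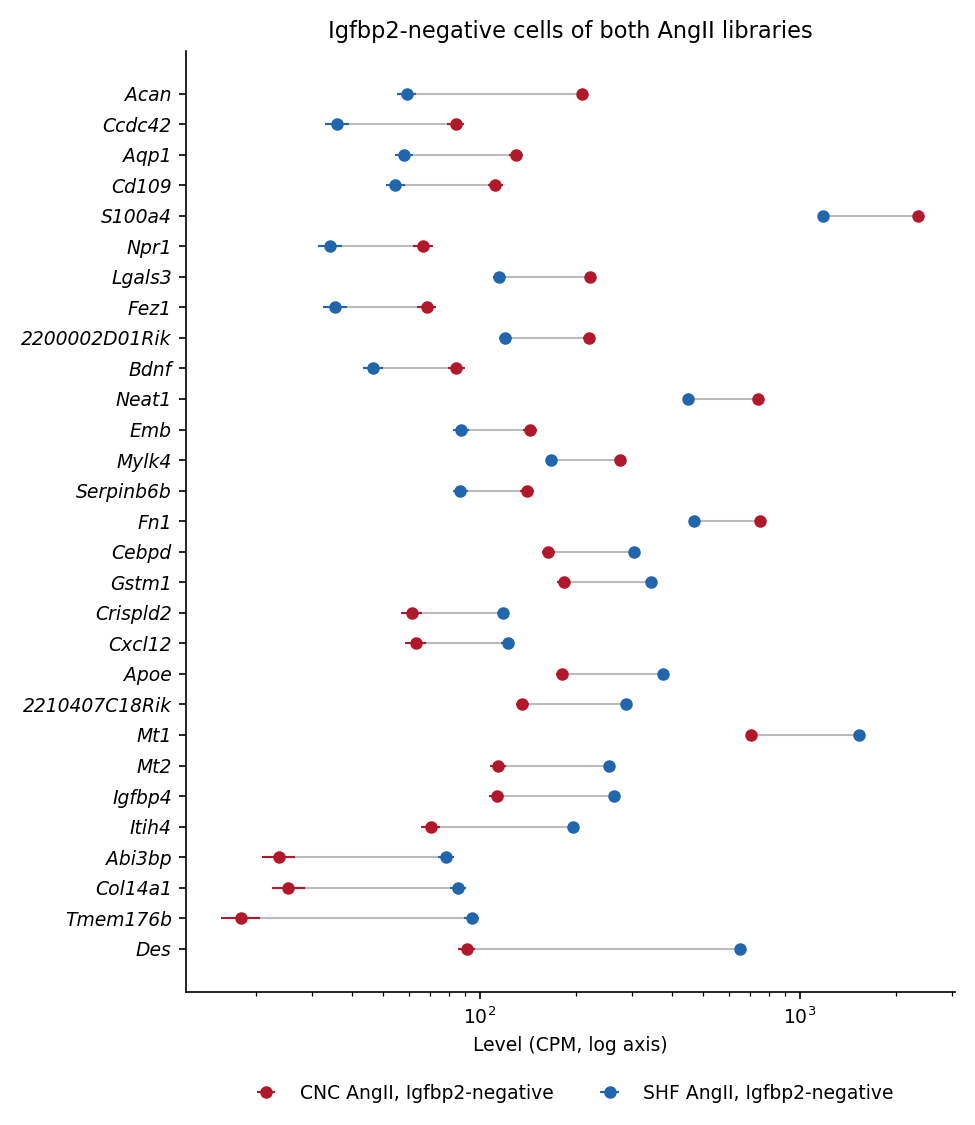
Level (CPM, logarithmic x axis) of the highest and lowest named genes (y axis) in Igfbp2-negative smooth muscle cells of CNC AngII and SHF AngII, standardised to the same depth; bars are 95% counting intervals and grey lines join the libraries. Des lies at 91.1 CPM in CNC AngII and 651 CPM in SHF AngII, and Acan at 209.6 and 59.2 CPM.

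The members also varied among themselves. Over 1014 members thinned to 5000 UMIs, the median of variance over mean was 1.06 for 2358 genes, near the value of pure counting, and 1.04 in Igfbp2-positive cells. Mgp, matrix Gla protein, an inhibitor of calcification, was the most uneven, with a ratio of 109: its median was 20 UMIs per cell and its highest 1043. The top 5% of members held 32.1% of the Mgp UMIs. Mt1 had a ratio of 16.1 in the members and 9.02 in Igfbp2-positive cells, with 40.6% of its UMIs in the top 5% of members, and Timp1 had 10.8 and 3.89. Acta2 and Tagln were even by comparison, with 8.90% and 8.98% of their UMIs in the top 5%. Des was carried by few members, 10.7% after thinning, and the top 5% of members held 84.5% of its UMIs. Acan was broad, seen in 43.3% of thinned members and 48.8% of thinned Igfbp2-positive cells.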

How the data were processed

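Single-cell RNA was profiled in 3 libraries with a droplet-based 3′ kit, per the labels' protocols. The authors deposited raw UMI counts per gene and barcode, with no normalisation. The submitters' processing notes name fastp, STAR 2.5, HTSeq 0.6.1 and mm10 without their roles. The gene annotation and barcode counting are not given in the sources used here. Genes listed numbered 32285 for AngII and 18760 for baseline. The latter uses older names, of which 514 were matched through RefSeq synonyms and 13 repeated names were left out.

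Each group's UMIs were added up and scaled by their total (CPM) within bins of total UMIs with upper edges of 2000, 4000, 6000, 8000, 10000, 12500, 15000, 20000 and 30000. Bins were weighted by the UMIs of the first group of each comparison, the Igfbp2-negative cells, those of CNC AngII between libraries. Counting intervals at 95% are gamma intervals for CPM, their combination for log2 ratios, and Clopper-Pearson for shares. UMIs remove amplification copies, but intervals and limits cover counting error only. Doublets were marked with Scrublet (scanpy 1.11.5) and kept. Python 3.11.15, numpy 2.4.6, scipy 1.17.1 and edgeR 4.0.16 (TMM scaling as an alternative) were used. The depth standardisation was also run on simulated counts with counting error and depth as the only variation between cells. No simulated cell was chosen on its own counts. That run therefore cannot show how it handles uneven genes or a split by Igfbp2. Thinning used seed 0. Library totals were 150954701 UMIs (CNC AngII), 147854476 (SHF AngII) and 92474476 (SHF baseline).

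Genes were named by rule: the 15 highest and 15 lowest ratios with a mean of 50 CPM or more and detected in 10% or more of the higher group's cells, without mitochondrial, ribosomal protein, gate and other cell type marker genes. Genes of the fixed lists could be named too. A gene that the rule names is not reported here. For variation, the 10 highest ratios of variance to mean were taken among genes with at least 0.25 thinned UMIs per cell. The members, lists and rules were chosen with earlier results of these data known. With 1 library per group no test was possible. In all, 17 alternatives were planned and 2 more, leaving out cells with macrophage or fibroblast marker UMIs, were added after the data were seen.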

Additional observations from a re-analysis of the deposited data

How the results depend on the processing

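No paired analysis was possible because each group had 1 library and the labels give no replicate numbers that the groups share, and for that reason leaving out a replicate was not run. Among the named genes of the CNC AngII split, 421 of 570 values under the alternatives stayed within the counting interval of the reported value, 144 moved and 5 reversed. Of 379 list medians 347 stayed within 0.1, 31 moved and 1 reversed. In the comparison of libraries 379 of 510 named gene values stayed and 131 moved. The limit of 5% mitochondrial UMIs was not run in SHF baseline, where no depth bin kept enough cells of both kinds. The cause of the moves was not tested, except where a setting itself alters the number of genes or cells.

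The members numbered 361 with at most 5% mitochondrial UMIs, 494 with at least 20 UMIs of Myh11 and 514 without cells that held macrophage marker UMIs. In the CNC AngII split the 47 higher and 15 lower genes became 25 and 6 with a pseudocount of 10, 12 and 4 at a mean of 50 CPM, 304 and 104 with no filter, 81 and 45 in thinned cells, and 72 and 40 without macrophage marker UMIs. Higher genes were 86 at 5% mitochondrial UMIs, and lower genes 34 without depth standardisation. Timp1 was -0.10 without standardisation, -0.29 in thinned cells and -0.03 with Igfbp2 read after thinning. Smoc2 was -0.02 and the inflammatory median -0.09 in thinned cells, and Ifi27l2a was -0.51 with at least 20 UMIs of Myh11.

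In the SHF AngII split the 151 and 41 genes became 84 and 20 with a pseudocount of 10, 40 and 18 at 50 CPM, 642 and 141 with no filter, and 255 and 68 at 5% mitochondrial UMIs. Higher genes were 80 without fibroblast marker UMIs and lower genes 93 in thinned cells. Timp1 was -0.16 in thinned cells and the striated muscle median 0.06 with no filter. In the SHF baseline split the 185 and 119 genes became 48 and 40 with a pseudocount of 10, 34 and 21 at 50 CPM, 1151 and 743 with no filter, 309 and 241 in thinned cells, 459 and 404 with Igfbp2 read after thinning, 355 and 268 against cells with at least 5 UMIs of Igfbp2, and 618 and 618 without fibroblast marker UMIs. Higher genes were 101 without standardisation. The striated muscle median was 0.02 at 50 CPM and 0.08 with no filter, and Ifi27l2a was 0.00 after 5% of the library profile was subtracted. Without fibroblast marker UMIs, which left only 81 Igfbp2-positive cells, the lipid median was -0.07, Tcap -0.23 and Srpx2 -0.33.

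Between CNC and SHF AngII the 123 and 198 genes became 60 and 117 with a pseudocount of 10, 36 and 51 at 50 CPM, 666 and 854 with no filter, and 211 and 307 at 5% mitochondrial UMIs. Lower genes were 121 without fibroblast marker UMIs. The inflammatory median was 0.00 with at least 2 UMIs of Myh11, 0.01 at 50 CPM, 0.01 after 5% of the library profile was subtracted, 0.03 without macrophage and 0.02 without fibroblast marker UMIs. The chondrogenic median was -0.36 with no filter. Depth limits the shares of cells: a member with 0 UMIs of Igfbp2 at 2594 UMIs may still transcribe it.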
